A study of Mus musculus with 12 samples.

Results

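The genes described here are 31 genes of cholesterol and fatty acid synthesis, out of 49671 genes counted in RNA sequencing of mouse samples labelled as embryos of embryonic day 9.5. They were taken by name from the pathway, and all 31 were found by gene identifier and passed the filter on low counts. There were 12 libraries, each made with a strand-specific kit from polyadenylated RNA of a pool that the labels call embryos. They formed 4 groups of 3 by genotype: LYL1 SCL DKO, in which both genes were targeted, SCL KO, LYL1 KO and wild type (WT). Scl is the older name of Tal1. It and Lyl1 code for paralogous bHLH transcription factors that act in the blood and vessel lineages. The labels give no strain, no allele and no treatment, and do not say whether the pools of a group came from separate litters, so that p-values measure the spread between these pools, which may be technical. The series title names primitive erythropoiesis, the making of the first red blood cells, as the question asked of Lyl1.

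Cholesterol is built from acetyl-CoA through mevalonate, farnesyl diphosphate, squalene and lanosterol, while the fatty acid enzymes turn the same precursor into palmitate and its longer or desaturated products. Both pathways are switched on by the SREBP transcription factors, which are made as membrane-bound precursors. Scap carries these precursors from the endoplasmic reticulum to the Golgi, where proteases release the active part, and the Insig proteins hold Scap back when sterols are plentiful. Insig1 is itself a known SREBP target, as are most enzymes of the pathway.

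Levels are CPM, that is counts relative to a common library total after TMM scaling, and where a mean stands for a group it is given ± SD with n = 3. Differences between groups are log2 fold changes, each with its standard error (SE), from edgeR's quasi-likelihood test in 1 fit of all 12 libraries. A gene is called where the Benjamini-Hochberg adjusted p over all 15399 genes tested is under 0.05. Total counts lay between 24324685 and 29212443 per library, and a library with 0 counts of a gene could still hold a level up to 3 counts, or 0.0936 to 0.131 CPM (counting error only). Every member lay above that range in every library.

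The targeted genes were read in every group first. Tal1 was at 92.8 ± 13 CPM in LYL1 SCL DKO and 109 ± 13.9 CPM in SCL KO, against 579 ± 39 CPM in LYL1 KO and 572 ± 65.5 CPM in WT. Lyl1 was at 84.1 ± 25.8 CPM in LYL1 SCL DKO and 87.7 ± 2.46 CPM in LYL1 KO, against 175 ± 50 CPM with SCL targeted alone and 181 ± 28.5 CPM in WT. Lyl1 thus stayed at 46.5% of the WT mean in LYL1 SCL DKO, where it was called lower (adjusted p = 0.00413), and at 48.5% in LYL1 KO, where it lay below WT in every library but was not called (adjusted p = 0.286). The labels do not say which part of the gene was targeted, and counts over the whole gene do not by themselves check the Lyl1 label. Markers of megakaryocytes and platelets were abundant in all libraries, and the sum of 20 such genes was 21833 to 41619 CPM in LYL1 SCL DKO, 56314 to 78491 CPM in SCL KO, 94712 to 108851 CPM in LYL1 KO and 87912 to 101258 CPM in WT. By contrast, the summed level of 8 heart muscle genes stayed between 0.595 and 7.29 CPM, that of 8 neural genes between 3.77 and 86.9 CPM, and that of 10 visceral endoderm and liver genes between 1.51 and 12.4 CPM, so that defining markers of several tissues of a whole embryo were nearly absent. These values go against RNA of whole embryos, the tissue is therefore in doubt, and the levels below are those of the libraries as labelled. Erythroid genes, 10 in number, summed to 27.6 to 117 CPM in LYL1 SCL DKO, 154 to 260 CPM in SCL KO, 340 to 387 CPM in LYL1 KO and 198 to 207 CPM in WT. In bulk RNA, fewer cells of a type and less RNA per cell cannot be told apart. The replicate 3 libraries of LYL1 SCL DKO, SCL KO and WT deviated together from their group means, with correlations across genes of 0.236 to 0.441 between them and of -0.330 to -0.108 with replicates 1 and 2 of the other 2 groups. The sum of 10 proliferation markers was 730 CPM in replicate 3 of LYL1 SCL DKO, 655 CPM in that of SCL KO, 551 CPM in that of LYL1 KO and 688 CPM in that of WT, against 351 to 444 CPM in all other libraries.

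Among the members, the highest level per length in WT was that of Scd2, a stearoyl-CoA desaturase, at 125 CPM per kilobase of gene model. Stard4, which carries cholesterol through the cytosol, followed at 72.5 CPM per kilobase, then Hmgcs1, the HMG-CoA synthase that feeds the mevalonate pathway, at 70.8 CPM per kilobase, and Srebf2, the SREBP of sterol synthesis, at 59 CPM per kilobase. Cyp51, the lanosterol demethylase, was the highest of the sterol enzymes at 51.1 CPM per kilobase. The lowest was Acaca, the acetyl-CoA carboxylase, at 1.24 CPM per kilobase. Summed over the 31 members, the level was 3461, 2758 and 3451 CPM in LYL1 SCL DKO, 3664, 3536 and 3153 CPM in SCL KO, 3003, 3143 and 3172 CPM in LYL1 KO and 3296, 3726 and 3605 CPM in WT. The sum in each LYL1 KO library was below that in each WT library, while the sums of LYL1 SCL DKO and SCL KO overlapped those of WT.

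**Figure D1:**
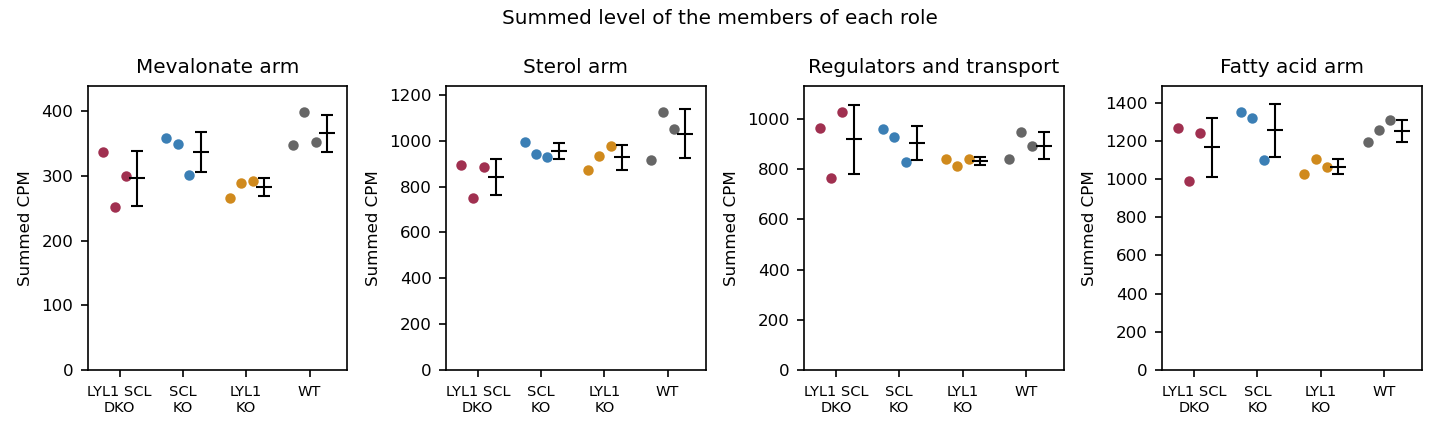
Summed CPM (y axis, from 0) of the members of each role for the libraries of LYL1 SCL DKO, SCL KO, LYL1 KO and WT (points, 3 per group), each group having its mean and SD as a bar beside the points. The mevalonate enzymes summed to 252 to 336 CPM in LYL1 SCL DKO and 267 to 293 CPM in LYL1 KO, both below the 348 to 399 CPM of WT, while the other roles overlapped with WT in LYL1 SCL DKO, except the sterol enzymes at 752 to 893 CPM against 917 to 1126 CPM in WT.

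In the double knockout against WT, the sterol machinery moved in both directions. Insig1 and Scap, the regulators that retain and release SREBP, rose together with Acss2, the cytosolic enzyme that makes acetyl-CoA from acetate. Stard4 fell, and so did 3 of the 7 mevalonate enzymes (Mvk, Pmvk and Fdps), 4 of the 11 sterol enzymes (Sqle, Tm7sf2, Nsdhl and Dhcr7) and the fatty acid genes Scd1 and Acly. In all, 13 of the 31 members were called (41.9%), against 34.5% of all genes tested. Of these, 3 were higher, where 16.4% of all genes were called higher, and 10 were lower, where 18.1% of all genes were called lower. The median log2 fold change was -0.20 over the members and 0.04 over all genes.

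Insig1 (ENSMUSG00000045294, chromosome 5, 28071363 to 28078662, GRCm38, plus strand) encodes a protein of the endoplasmic reticulum that retains Scap. Its level was 132, 114 and 342 CPM in LYL1 SCL DKO, 58.8, 55.7 and 60.2 CPM in SCL KO, 39.6, 49.4 and 46.9 CPM in LYL1 KO and 48.6, 59.7 and 60.1 CPM in WT. All 3 LYL1 SCL DKO libraries lay above all 9 others, and replicate 3 stood far above the other two. Insig1 rose by 1.80 ± 0.33 on the log2 scale in LYL1 SCL DKO against WT, a 3.49-fold difference (adjusted p = 0.00124). Without LYL1 SCL DKO replicate 3 the log2 fold change was 1.12 (adjusted p = 6.27e-05). That library also had the lowest summed megakaryocyte and platelet markers, at 21833 CPM, and, like replicate 3 of the other groups, high proliferation markers. The part of these in its Insig1 level was not tested.

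Scap (ENSMUSG00000032485, chromosome 9, 110333288 to 110384950, plus strand), the escort of SREBP, was at 56.2, 60.1 and 65.4 CPM in LYL1 SCL DKO, 46.6, 44.8 and 51.1 CPM in SCL KO, 32.8, 39.3 and 37.8 CPM in LYL1 KO and 35.8, 30.9 and 39.2 CPM in WT. The levels of LYL1 SCL DKO lay above those of SCL KO, and those of SCL KO above both other groups, without overlap. Scap rose by 0.78 ± 0.11 in LYL1 SCL DKO against WT (adjusted p = 0.000265). Of the 50-base words of its transcripts, 9.96% also occur, on either strand, in other genes, chiefly 5830462I19Rik. Reads from these stretches may not be assignable with certainty.

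Acss2 (ENSMUSG00000027605, chromosome 2, 155517948 to 155585724, plus strand) was at 169, 133 and 122 CPM in LYL1 SCL DKO, 135, 136 and 102 CPM in SCL KO, 92.7, 79.9 and 91.1 CPM in LYL1 KO and 75.6, 84.9 and 86.6 CPM in WT. It was higher in every LYL1 SCL DKO and SCL KO library than in any LYL1 KO or WT library. Acss2 rose by 0.78 ± 0.14 in LYL1 SCL DKO against WT (adjusted p = 0.00135).

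Stard4, a soluble sterol carrier and known SREBP target, was at 251, 186 and 180 CPM in LYL1 SCL DKO, 409, 405 and 312 CPM in SCL KO, 361, 325 and 355 CPM in LYL1 KO and 368, 460 and 388 CPM in WT. The LYL1 SCL DKO libraries formed a group of their own below the 9 others. Stard4 fell by 0.98 ± 0.15 in LYL1 SCL DKO against WT, to 50.7% of the WT mean (adjusted p = 0.000491), the largest fall among the 31 members.

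**Figure D2:**
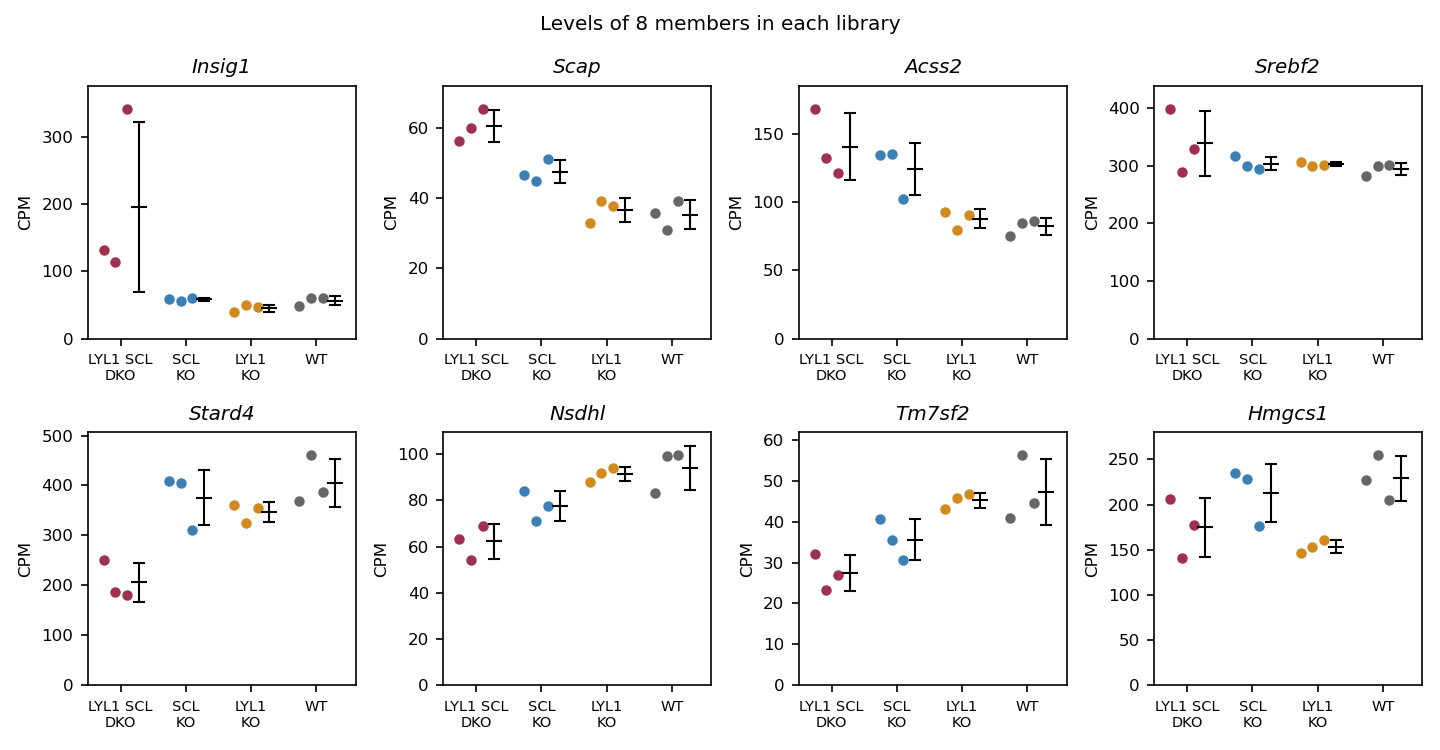
CPM (y axes, from 0) of 8 members in the libraries of LYL1 SCL DKO, SCL KO, LYL1 KO and WT (points, 3 per group), each group having its mean and SD as a bar beside the points. Insig1 in LYL1 SCL DKO ran from 114 to 342 CPM, above all other libraries, while Stard4 in LYL1 SCL DKO ran from 180 to 251 CPM, below all others, and Hmgcs1 was lowest on average in LYL1 KO.

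Of the 7 mevalonate enzymes, from Acat2 to Fdps, 3 fell in LYL1 SCL DKO against WT, with a median log2 fold change of -0.39. That is 42.9%, where 34.5% of all genes were called and 18.1% were called lower. Mvk, the mevalonate kinase, was at 18.3, 10.6 and 14.8 CPM in LYL1 SCL DKO, 20.7, 17.4 and 19.4 CPM in SCL KO, 22.1, 23.8 and 21.9 CPM in LYL1 KO and 19.7, 26.8 and 24.4 CPM in WT, with replicate 2 of LYL1 SCL DKO the lowest of all. It fell by 0.70 ± 0.18 (adjusted p = 0.011, and 0.055 without WT replicate 2). Pmvk, the phosphomevalonate kinase, was at 21.4, 15.3 and 21.9 CPM in LYL1 SCL DKO, 22.3, 22.5 and 22 CPM in SCL KO, 23.5, 24.1 and 19.6 CPM in LYL1 KO and 22.4, 29.4 and 29.4 CPM in WT. The groups LYL1 SCL DKO and WT came as close as 21.9 and 22.4 CPM, and Pmvk fell by 0.47 ± 0.16 (adjusted p = 0.0368). That call was lost without LYL1 SCL DKO replicate 2 (0.129), WT replicate 2 (0.136) or WT replicate 3 (0.0962). Fdps, which makes farnesyl diphosphate, was at 7.5, 8.3 and 8.89 CPM in LYL1 SCL DKO, 10.3, 10.2 and 8.26 CPM in SCL KO, 9.96, 10.5 and 11.5 CPM in LYL1 KO and 12.1, 15.5 and 12.4 CPM in WT, below WT in every library of the other groups. It fell by 0.69 ± 0.15 (adjusted p = 0.0041). Of its 50-base words, 26.2% recur in other genes, among them Gm43738, Gm3571 and Gm5873, and its level is uncertain to that extent.

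The other 4 mevalonate enzymes were not called in this comparison. Hmgcs1 was at 206, 141 and 177 CPM in LYL1 SCL DKO, against 227, 254 and 205 CPM in WT, a log2 fold change of -0.39 ± 0.15 (adjusted p = 0.0624). Mvd, the diphosphomevalonate decarboxylase, and Idi1, the isopentenyl diphosphate isomerase, had log2 fold changes of 0.12 and 0.26, and Acat2, the acetoacetyl-CoA thiolase of the cytosol, of -0.02. Transcripts of Acat2 share 39.1% of their 50-base words with other genes, chiefly Acat3 and Tcp1, and those of Idi1 share 25.3%.

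Of the 11 sterol enzymes, from Fdft1 to Dhcr7, 4 fell in LYL1 SCL DKO against WT. That is 36.4%, where 34.5% of all genes were called and 18.1% were called lower. A log2 fold change below 0 was seen in 10 of the 11, with a median of -0.33, against 0.04 over all genes. Tm7sf2, a sterol C14 reductase (ENSMUSG00000024799, chromosome 19, 6062821 to 6068373, minus strand), was at 32.2, 23.3 and 27 CPM in LYL1 SCL DKO, 40.7, 35.5 and 30.8 CPM in SCL KO, 43.2, 45.8 and 46.9 CPM in LYL1 KO and 40.9, 56.3 and 44.7 CPM in WT. It fell by 0.78 ± 0.15 (adjusted p = 0.00193), the largest fall among the sterol enzymes. Of its 50-base words, 9.87% recur in other genes, chiefly Vps51. Nsdhl, the dehydrogenase that acts in the removal of the C4 methyl groups (ENSMUSG00000031349, chromosome X, 72918557 to 72958514, plus strand), was at 63.3, 54.3 and 69.1 CPM in LYL1 SCL DKO, 83.9, 71.1 and 77.8 CPM in SCL KO, 88.2, 92 and 94.3 CPM in LYL1 KO and 83.1, 99.4 and 99.5 CPM in WT. All LYL1 SCL DKO libraries lay below all others, and Nsdhl fell by 0.59 ± 0.11 (adjusted p = 0.00148).

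Dhcr7, which reduces 7-dehydrocholesterol to cholesterol, was at 43.7, 37.1 and 42.3 CPM in LYL1 SCL DKO, 58.3, 51.5 and 47.7 CPM in SCL KO, 47.1, 55.1 and 50.7 CPM in LYL1 KO and 52.3, 53.9 and 54.8 CPM in WT. It fell by 0.39 ± 0.10 (adjusted p = 0.012). Sqle, the squalene epoxidase and a rate-limiting step, was at 154, 117 and 134 CPM in LYL1 SCL DKO, 155, 154 and 148 CPM in SCL KO, 155, 163 and 169 CPM in LYL1 KO and 157, 198 and 188 CPM in WT. The LYL1 SCL DKO libraries lay below WT, the closest pair being 154 and 157 CPM, and Sqle fell by 0.43 ± 0.12 (adjusted p = 0.0138). Without LYL1 SCL DKO replicate 2 or WT replicate 2 the adjusted p of Sqle was 0.0547 and 0.0752.

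The remaining 7 sterol enzymes were not called against WT. Ebp, the sterol isomerase, had a log2 fold change of -0.33 ± 0.12 (adjusted p = 0.0572) and Hsd17b7, the sterol ketoreductase, of -0.45 ± 0.17 (adjusted p = 0.0576). Both overlapped with WT. Fdft1, the squalene synthase, was the 1 sterol enzyme with a positive value, 0.16. Lss, the lanosterol synthase, Cyp51, Msmo1, the methylsterol oxidase, and Sc5d, the C5 desaturase, had log2 fold changes of -0.21, -0.18, -0.23 and -0.08. In Cyp51, the most abundant of them, LYL1 SCL DKO libraries were at 209, 175 and 213 CPM and WT libraries at 202, 244 and 231 CPM, which overlap.

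Among the 6 regulators and carriers, Insig1, Scap and Stard4 were called (50%, against 34.5% of all genes) and the other 3 were not. Insig2, the second Insig, was at 51.3, 46.5 and 41.6 CPM in LYL1 SCL DKO, against 37.6, 36.4 and 38 CPM in WT, a log2 fold change of 0.32 ± 0.12 (adjusted p = 0.0576). Srebf2 was at 398, 288 and 329 CPM in LYL1 SCL DKO and 283, 300 and 301 CPM in WT, and Srebf1, which encodes the SREBP of fatty acid synthesis, at 75.3, 70.2 and 70.7 CPM and 68, 60.4 and 68.2 CPM in the same groups. Their log2 fold changes were 0.20 and 0.14, so that the transcripts of the 2 transcription factors did not pass the test while those of Insig1 and Scap did. The counts measure transcripts and not the cleavage of SREBP.

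Of the 7 fatty acid genes, 1 rose, Acss2, and 2 fell (42.9% called, against 34.5% of all genes). Scd1, a stearoyl-CoA desaturase, was at 20.6, 22.4 and 32.8 CPM in LYL1 SCL DKO, 36.7, 36.7 and 18.1 CPM in SCL KO, 26.1, 30.8 and 20.2 CPM in LYL1 KO and 42.5, 45 and 41.6 CPM in WT. It was below WT in every library of the other 3 groups and fell by 0.77 ± 0.26 in LYL1 SCL DKO (adjusted p = 0.0386). Leaving out any 1 library of the comparison other than LYL1 SCL DKO replicate 3 ended the call, with adjusted p-values up to 0.118. Acly, the ATP citrate lyase that supplies cytosolic acetyl-CoA, was at 212, 186 and 193 CPM in LYL1 SCL DKO, 249, 231 and 204 CPM in SCL KO, 230, 221 and 217 CPM in LYL1 KO and 245, 240 and 231 CPM in WT, and fell by 0.28 ± 0.10 (adjusted p = 0.0426). The call of Acly was lost without LYL1 SCL DKO replicate 2 (0.124), LYL1 SCL DKO replicate 3 (0.0699), WT replicate 1 (0.105) or WT replicate 2 (0.109). Fasn, the fatty acid synthase, was at 113, 105 and 166 CPM in LYL1 SCL DKO and 133, 135 and 141 CPM in WT, which overlap, with a log2 fold change of -0.09. Those of Acaca, Scd2 and the fatty acid elongase Elovl6 were -0.08, -0.20 and 0.37, and none was called. Of the 50-base words of Scd1 and Scd2, 4.56% and 3.97% recur in other genes, chiefly the copies Scd3 and Scd4.

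Of the 13 calls in LYL1 SCL DKO against WT, 8 were kept in each of 14 other settings of the analysis: Insig1, Scap, Acss2, Stard4, Fdps, Tm7sf2, Nsdhl and Dhcr7. Leaving out WT replicate 2 left 8 calls, 3 higher and 5 lower. Without that library 3899 of all genes were called, against 5312 with all 12 libraries. With all 12 libraries 34.5% of all genes tested were called, and 18.1% were called lower. Of the megakaryocyte and platelet markers 17 of 20 were called lower (85%), and of the unfolded protein response genes 3 of 10 (30%). The 10 unfolded protein response genes summed to 1106 to 1441 CPM in LYL1 SCL DKO against 1607 to 1955 CPM in WT. All 14 macrophage markers had a log2 fold change below 0, with a median of -0.82, and 3 were called lower (21.4%). They summed to 3644 to 4440 CPM in LYL1 SCL DKO and 4620 to 7674 CPM in WT. Of the 10 endothelial markers, 5 were called lower and 1 higher (60% called). Their sum was 341 to 412 CPM in LYL1 SCL DKO and 586 to 685 CPM in WT. Esam had the most counts of these genes in each WT library and was at 23.7% of the WT mean in LYL1 SCL DKO. Kdr was at 69.5%, Flt1 at 77.4% and Tie1 at 141%, so the sum does not stand for each gene. The part of these 4 lists in the sterol gene values was not tested.

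**Figure D3:**
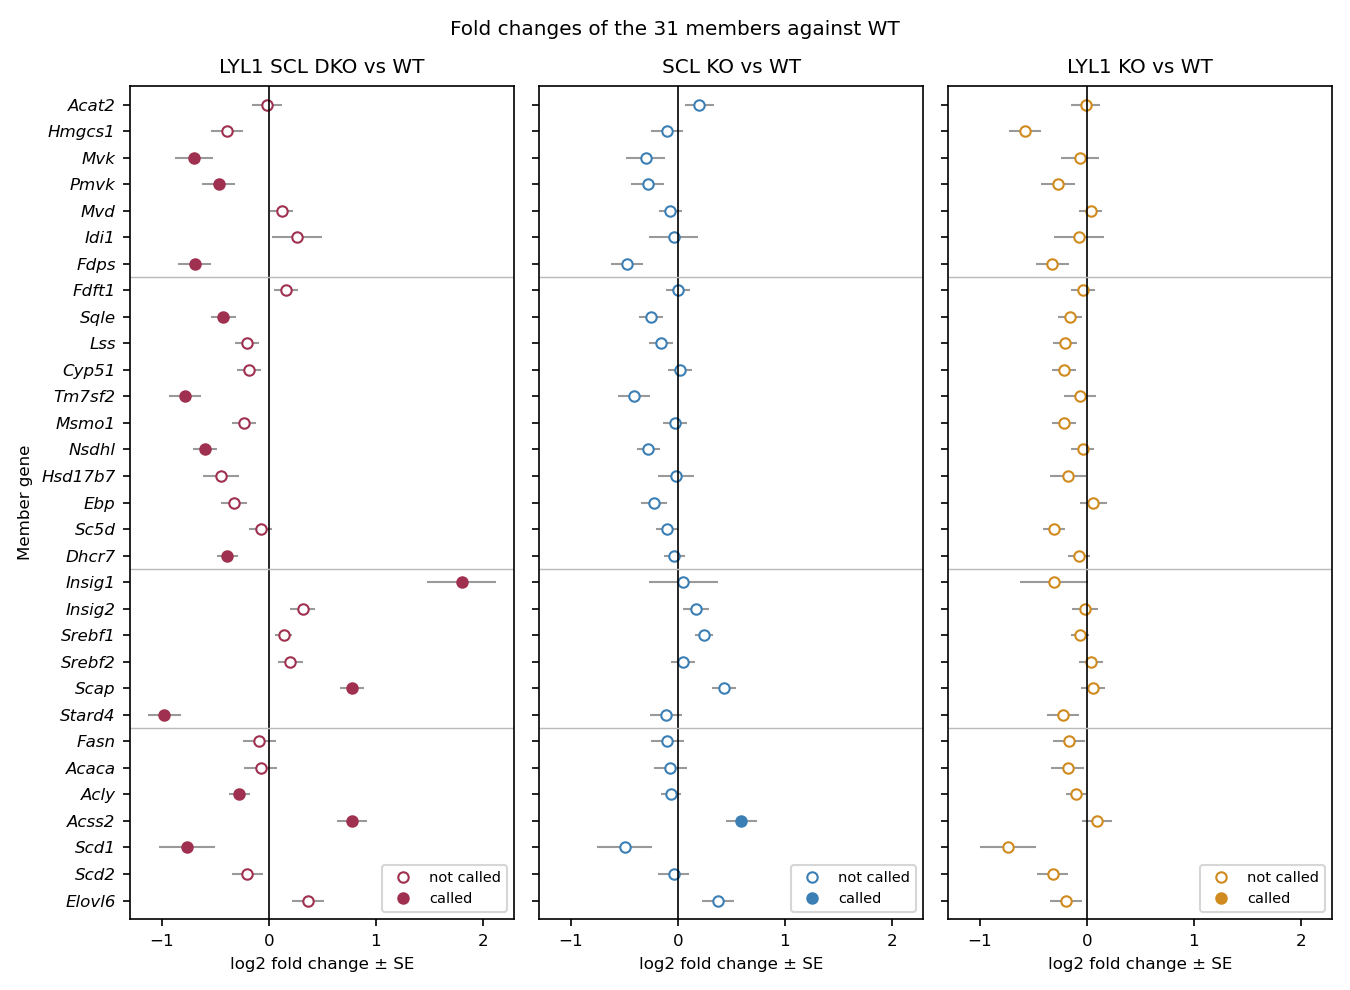
Log2 fold changes ± SE (x axis) of the 31 members (y axis) in LYL1 SCL DKO, SCL KO and LYL1 KO against the same 3 WT libraries, with called members filled and the others open. In LYL1 SCL DKO 13 members were called, led by Insig1 at 1.80 and Stard4 at -0.98, in SCL KO 1 was called, Acss2, and in LYL1 KO 0 were called although 26 values lie below 0.

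Promoter windows of these genes were read from RefSeq (build GRCm38.p6, 250 bases before to 50 bases after each annotated start), where 33 windows of 25 members were found. Not among them were Sqle, Stard4, Scd2, Fdps, Fdft1 and Scd1. The box CCAAT, searched on both strands, occurred in 22 of the 33 windows (66.67%), against 37.41% of all 32851 windows, and 7 member windows held 3 or more copies, against 3.37% of all windows. The E-box CACGTG occurred in 6 member windows (18.18%) of 5 genes, against 7.15% of all windows. Among these, the windows of Scap overlap and hold the same E-box. The GC box GGGCGG occurred in 25 member windows (75.76%), against 35.66% of all windows. The letters TCACNCCAC, one form of the sterol regulatory element bound by SREBP, occurred in 1 member window, that of Hmgcs1, and in 1.24% of all windows. Base composition was not matched between members and all windows, and a match describes letters, not binding.

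4 windows are shown. Insig1 had the largest change, Mvk and Nsdhl fell and hold 5 and 4 CCAAT boxes, and Hmgcs1 holds the sterol regulatory element and 4 CCAAT boxes. Of the windows not shown, those of Tm7sf2 and Acly, which also fell, hold 1 CCAAT box each. Those of Fasn, Msmo1 and Hsd17b7, which were not called, hold 3 each. Capitals mark TCACNCCAC, CCAAT, which reads ATTGG where it lies on the other strand, and also CACGTG, and the marked matches do not overlap. All 4 windows lie on the plus strand, at chr5:28071162-28071461 for Insig1, chr5:114444019-114444318 for Mvk, chrX:72918271-72918570 for Nsdhl and chr13:119690101-119690400 for Hmgcs1.
Insig1: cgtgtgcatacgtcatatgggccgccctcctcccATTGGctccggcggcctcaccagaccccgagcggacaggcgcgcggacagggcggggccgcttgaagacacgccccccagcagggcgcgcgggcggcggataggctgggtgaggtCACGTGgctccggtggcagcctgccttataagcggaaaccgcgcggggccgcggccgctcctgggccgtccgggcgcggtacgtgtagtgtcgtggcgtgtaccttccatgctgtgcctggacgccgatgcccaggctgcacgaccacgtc
Mvk: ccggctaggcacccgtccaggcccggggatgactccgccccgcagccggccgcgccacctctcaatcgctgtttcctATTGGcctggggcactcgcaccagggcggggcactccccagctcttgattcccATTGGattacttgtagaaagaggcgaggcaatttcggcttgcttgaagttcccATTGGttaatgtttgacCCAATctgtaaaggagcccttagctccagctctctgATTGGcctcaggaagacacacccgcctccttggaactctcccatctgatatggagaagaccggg
Nsdhl: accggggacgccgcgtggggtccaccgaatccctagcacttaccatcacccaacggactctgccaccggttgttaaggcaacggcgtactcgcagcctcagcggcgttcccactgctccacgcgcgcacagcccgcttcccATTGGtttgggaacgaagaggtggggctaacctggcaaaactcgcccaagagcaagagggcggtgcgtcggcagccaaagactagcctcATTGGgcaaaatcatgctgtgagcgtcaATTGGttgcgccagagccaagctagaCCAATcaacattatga
Hmgcs1: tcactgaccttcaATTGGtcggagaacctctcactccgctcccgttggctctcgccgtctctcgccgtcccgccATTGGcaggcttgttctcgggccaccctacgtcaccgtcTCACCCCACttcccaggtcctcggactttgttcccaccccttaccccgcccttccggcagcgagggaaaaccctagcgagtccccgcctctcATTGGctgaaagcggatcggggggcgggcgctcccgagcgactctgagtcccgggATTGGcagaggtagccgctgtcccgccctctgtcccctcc
The E-box of Insig1 begins 101 bases before the start and its single CCAAT match lies 216 bases before it. The CCAAT boxes of Mvk lie between 173 and 14 bases before the start, and the sterol regulatory element of Hmgcs1 begins 137 bases before the start. The CCAAT boxes of Nsdhl begin 109 and 20 bases before the start and at bases 9 and 35 after it. Insig1 and Hmgcs1 are both known SREBP targets. In LYL1 SCL DKO against WT, Insig1 rose and Hmgcs1, at -0.39, was not called.

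Loss of SCL alone changed 1 member. In SCL KO against WT, Acss2 rose and the other 30 members were not called. The share was 3.23%, against 5.03% of all genes, with 2.29% of all genes called higher and 2.73% called lower. Acss2 was at 135, 136 and 102 CPM in SCL KO, against 75.6, 84.9 and 86.6 CPM in WT, without overlap. It rose by 0.59 ± 0.14 (adjusted p = 0.033). The call was lost without SCL KO replicate 1 (0.105), SCL KO replicate 2 (0.127), WT replicate 1 (0.118) or WT replicate 2 (0.103), and in the 6 libraries alone (0.0526).

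The next smallest p-values in SCL KO against WT belonged to Scap, Fdps and Srebf1. Scap was at 46.6, 44.8 and 51.1 CPM in SCL KO, against 35.8, 30.9 and 39.2 CPM in WT, without overlap, and had a log2 fold change of 0.43 ± 0.11 (adjusted p = 0.0504). With DESeq2's Wald test its adjusted p was 0.0104. Fdps had a log2 fold change of -0.48 ± 0.15 (adjusted p = 0.108) and Srebf1 of 0.24 ± 0.08 (adjusted p = 0.144). The median over the members was -0.07, and 22 of 31 values were below 0.

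Loss of LYL1 alone gave no called member, against 0.0714% of all genes called, 0.039% higher and 0.0325% lower, by edgeR's quasi-likelihood test. DESeq2's Wald test and limma-voom gave 0 as well, and 4 members had an unadjusted p under 0.05. The values leaned low: 26 of 31 log2 fold changes were below 0, the median was -0.16 against -0.0022 over all genes, and 8 members were lower in all LYL1 KO libraries than in all WT libraries, against 8.18% of all genes. No member was higher without overlap, against 7.7% of all genes. The median was -0.07 without LYL1 KO replicate 1 and -0.08 without WT replicate 2.

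Hmgcs1 had the smallest p-value of the members in LYL1 KO against WT. It was at 147, 153 and 160 CPM in LYL1 KO and 227, 254 and 205 CPM in WT, without overlap. Its log2 fold change was -0.58 ± 0.15 (adjusted p = 0.414), and the adjusted p lay between 0.0626 and 1 over 14 other settings. Sc5d was at 41.2, 45.2 and 50.8 CPM in LYL1 KO and 54.3, 63.7 and 51.5 CPM in WT, a log2 fold change of -0.31 ± 0.10 (adjusted p = 0.513). Scd1 was at 26.1, 30.8 and 20.2 CPM in LYL1 KO and 42.5, 45 and 41.6 CPM in WT, a log2 fold change of -0.74 ± 0.26 (adjusted p = 0.522). Scd2, the most abundant member, was at 523, 581 and 540 CPM in LYL1 KO and 632, 682 and 739 CPM in WT (log2 fold change -0.32 ± 0.15, adjusted p = 0.621). The 4 genes were lower in each LYL1 KO library than in each WT library, but no difference passed the test.

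Removing LYL1 on the SCL KO background raised Insig1 and Scap and lowered Stard4 and Dhcr7. These 4 members (12.9%) were called in LYL1 SCL DKO against SCL KO, where 19.1% of all genes were called, 8.37% higher and 10.8% lower. Insig1 was at 132, 114 and 342 CPM in LYL1 SCL DKO and 58.8, 55.7 and 60.2 CPM in SCL KO, and rose by 1.75 ± 0.33 (adjusted p = 0.00305), or by 1.07 without LYL1 SCL DKO replicate 3 (adjusted p = 0.000308). Stard4 was at 251, 186 and 180 CPM in LYL1 SCL DKO and 409, 405 and 312 CPM in SCL KO, and fell by 0.87 ± 0.15 (adjusted p = 0.0024). Neither pair of groups overlapped.

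Scap rose by 0.35 ± 0.11 (adjusted p = 0.0473) and Dhcr7 fell by 0.35 ± 0.10 (adjusted p = 0.0304) in LYL1 SCL DKO against SCL KO. The call of Scap was lost without LYL1 SCL DKO replicate 2 (0.0982), LYL1 SCL DKO replicate 3 (0.147), SCL KO replicate 1 (0.155) or SCL KO replicate 2 (0.17), and that of Dhcr7 without LYL1 SCL DKO replicate 2 (0.101), SCL KO replicate 1 (0.125) or SCL KO replicate 2 (0.0763). With the replicate number as a block, Scap and Dhcr7 were called (adjusted p = 0.0223 and 0.0303). Nsdhl, Hsd17b7 and Tm7sf2 followed, with log2 fold changes of -0.32 ± 0.11, -0.44 ± 0.17 and -0.38 ± 0.15 and adjusted p-values of 0.0643, 0.0951 and 0.107. Nsdhl was called lower with the replicate block (adjusted p = 0.0456). Acss2, which was high in both groups, differed by 0.18 ± 0.14 and was not called.

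In LYL1 SCL DKO against LYL1 KO, 11 members were called (35.5%), a share close to the 35.2% of all genes. Of all genes, 17.4% were called higher and 17.9% lower. Insig1, Scap, Acss2, Elovl6 and Insig2 were higher, and Stard4, Tm7sf2, Mvk, Nsdhl, Ebp and Dhcr7 were lower. The comparisons of LYL1 SCL DKO with WT, SCL KO and LYL1 KO share the LYL1 SCL DKO libraries, so that their values for a gene are not independent. Insig1 rose by 2.11 ± 0.33 (adjusted p = 0.000419), or by 1.43 without LYL1 SCL DKO replicate 3, Scap by 0.73 ± 0.11 (adjusted p = 0.000403) and Acss2 by 0.68 ± 0.14 (adjusted p = 0.00286). Stard4 fell by 0.75 ± 0.15 (adjusted p = 0.00257), Tm7sf2 by 0.72 ± 0.15 (adjusted p = 0.00305), Nsdhl by 0.56 ± 0.11 (adjusted p = 0.00217) and Mvk by 0.64 ± 0.18 (adjusted p = 0.0171).

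3 of these members were called against LYL1 KO and in no other comparison. Elovl6 was at 58.5, 46.7 and 71.9 CPM in LYL1 SCL DKO, 62.4, 57.1 and 59 CPM in SCL KO, 33.7, 41.3 and 44.8 CPM in LYL1 KO and 41.8, 46.4 and 49.3 CPM in WT. It lay higher in each LYL1 SCL DKO and SCL KO library than in each LYL1 KO library, and rose by 0.56 ± 0.15 against LYL1 KO (adjusted p = 0.0119, and 0.067 without LYL1 KO replicate 1). Ebp was at 40, 38.4 and 40.9 CPM in LYL1 SCL DKO, 41.7, 41.5 and 45.2 CPM in SCL KO, 52.8, 55.7 and 47.6 CPM in LYL1 KO and 39.7, 54.9 and 55 CPM in WT, and fell by 0.39 ± 0.12 against LYL1 KO (adjusted p = 0.028). Insig2 was at 51.3, 46.5 and 41.6 CPM in LYL1 SCL DKO, 45.3, 45.4 and 35.1 CPM in SCL KO, against 39.8, 33.9 and 37 CPM in LYL1 KO, and rose by 0.33 ± 0.12 against LYL1 KO (adjusted p = 0.0472). Dhcr7 fell by 0.31 ± 0.10 (adjusted p = 0.032). Leaving out 1 library ended the calls of Mvk (LYL1 SCL DKO replicate 2 or LYL1 KO replicate 2, up to 0.0568), Ebp (LYL1 SCL DKO replicates 1 or 2, LYL1 KO replicates 1 or 2, up to 0.101), Dhcr7 (LYL1 SCL DKO replicate 2, LYL1 KO replicates 2 or 3, up to 0.114) and Insig2 (all but LYL1 SCL DKO replicate 3, up to 0.16).

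**Figure D4:**
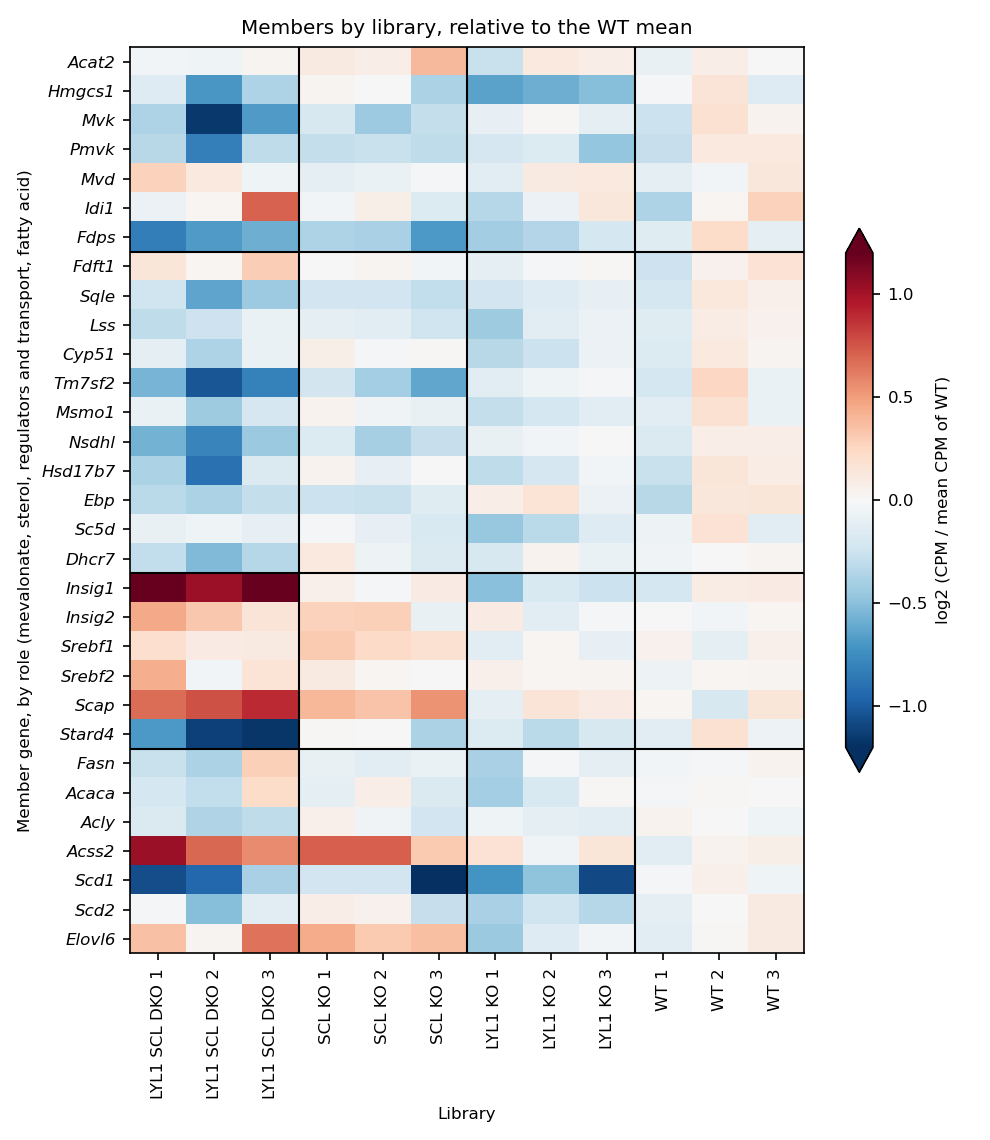
Log2 ratio of CPM to the WT mean (colour, red above and blue below, saturated at the ends of the bar) for the 31 members (y axis, by role) in the 12 libraries (x axis, LYL1 SCL DKO, SCL KO, LYL1 KO, WT). Insig1 is red in all 3 LYL1 SCL DKO libraries, Stard4 blue, and LYL1 SCL DKO replicate 2 is the lowest of all libraries for 13 of the 31 members.

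Whether LYL1 loss acted differently with and without SCL was tested as an interaction, the log2 fold change of LYL1 SCL DKO against SCL KO minus that of LYL1 KO against WT. Only Insig1 was called among the members (3.23%), against 9.38% of all genes, 3.51% higher and 5.86% lower. Its log2 fold change was 1.75 ± 0.33 in LYL1 SCL DKO against SCL KO and -0.31 ± 0.32 in LYL1 KO against WT, an interaction of 2.06 ± 0.45 (adjusted p = 0.0173). The interaction was 1.38 without LYL1 SCL DKO replicate 3 (adjusted p = 0.00101), and its call was lost without LYL1 KO replicate 1 (0.054) or SCL KO replicate 1 (0.0506), and with no filter on low counts (0.0783). Stard4 came next with -0.64 ± 0.22 (adjusted p = 0.0891), then Sc5d with 0.33 ± 0.15 (adjusted p = 0.197) and Dhcr7 with -0.28 ± 0.14 (adjusted p = 0.261). The median interaction was 0.10 over the members and 0.04 over all genes.

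**Figure D5:**
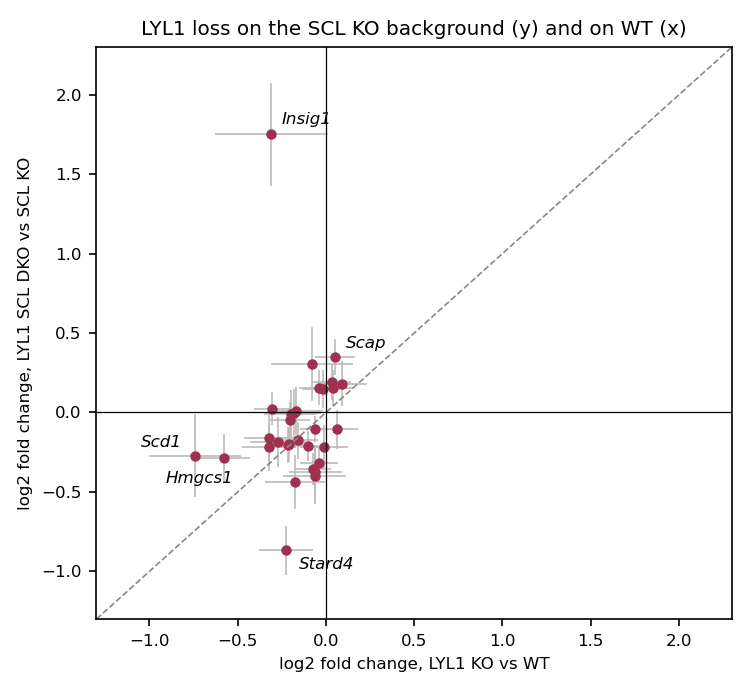
Log2 fold change ± SE of each of the 31 members (points) in LYL1 SCL DKO against SCL KO (y axis) and in LYL1 KO against WT (x axis), with a dashed line where both are equal. Insig1 lies far above the line at 1.75 and -0.31, and Stard4 below it at -0.87 and -0.22.

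Single libraries differed from the others of their group over many members. LYL1 SCL DKO replicate 2 had the lowest level of all 12 libraries for 13 members (41.9%), against 10% of all genes tested, and LYL1 KO replicate 1 for 9 members (29%), against 10.2% of all genes. WT replicate 2 had the highest level for 12 members (38.7%), against 9.57% of all genes. LYL1 SCL DKO replicate 3 had the highest level for 7 members (22.6%), against 17.6% of all genes. The member sum of LYL1 SCL DKO replicate 2, 2758 CPM, was the lowest of the 12 libraries and that of WT replicate 2, 3726 CPM, the highest.

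Genes around the pathway were taken from 3 lists. In the isoprenoid branches (10 genes, all tested), 1 gene (10%) was called in LYL1 SCL DKO against WT, where 34.5% of all genes were. It was Pdss2, a subunit of the enzyme that makes the side chain of ubiquinone, at 4.85 ± 0.773 CPM in LYL1 SCL DKO and 3.13 ± 0.517 CPM in WT (log2 fold change 0.63 ± 0.21, adjusted p = 0.0344). The call was lost without LYL1 SCL DKO replicate 1, WT replicate 1 or WT replicate 2, with adjusted p-values up to 0.113 over 14 settings.

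Among genes of sterol sensing, transport, storage and efflux, 19 of 20 were tested, and 3 rose and 8 fell in LYL1 SCL DKO against WT (57.9% called, where 16.4% of all genes were called higher and 18.1% lower). Against SCL KO, 2 rose and 5 fell in LYL1 SCL DKO (36.8%, where 19.1% of all genes were called), and against LYL1 KO, 3 rose and 6 fell (47.4%, where 35.2% of all genes were called). The macrophage markers had a median log2 fold change of -0.82 in LYL1 SCL DKO against WT, and 3 of 14 were called lower (21.4%). By library, in replicate order, they summed to 3644, 3960 and 4440 CPM in LYL1 SCL DKO. In WT they summed to 7674, 4621 and 4620 CPM. Their part in the values of this list was not tested. The 2 proteases that release SREBP in the Golgi went opposite ways. Mbtps1, the site-1 protease, was at 63, 75.1 and 68 CPM in LYL1 SCL DKO and 48.2, 46.4 and 43.5 CPM in WT and rose by 0.58 ± 0.09 (adjusted p = 0.000576). Mbtps2, the site-2 protease, was at 34.5, 24.4 and 25.9 CPM in LYL1 SCL DKO and 56.9, 65.5 and 52.4 CPM in WT and fell by 1.04 ± 0.14 (adjusted p = 0.000181). Mbtps2 was also lower in SCL KO, at 38.3, 38.6 and 38.7 CPM (log2 fold change -0.60 ± 0.14, adjusted p = 0.0329), a call lost when single libraries were left out, with adjusted p-values up to 0.135.

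Vldlr, the very low density lipoprotein receptor, was at 516, 570 and 378 CPM in LYL1 SCL DKO, 399, 428 and 511 CPM in SCL KO, 170, 182 and 207 CPM in LYL1 KO and 138, 152 and 237 CPM in WT. It rose by 1.47 ± 0.21 in LYL1 SCL DKO (adjusted p = 0.000246) and by 1.34 ± 0.21 in SCL KO (adjusted p = 0.00334), both against WT, and both calls were kept in 14 other settings. Lrp8, a receptor of the same family, was at 27 ± 11.1 CPM in LYL1 SCL DKO and 53.6 ± 4.88 CPM in SCL KO, and fell by 0.99 ± 0.22 (adjusted p = 0.00812). Scarb1, the receptor for high density lipoprotein, was at 200 ± 27.9 CPM in LYL1 SCL DKO and 356 ± 16.3 CPM in SCL KO, and fell by 0.83 ± 0.14 (adjusted p = 0.00158). Gramd1c, of a family that carries cholesterol from the plasma membrane, was at 20.7, 12.6 and 6.37 CPM in LYL1 SCL DKO and 158, 178 and 66.6 CPM in WT and fell by 3.34 ± 0.51 (adjusted p = 0.000385). Replicate 3 was the lowest library of Gramd1c in LYL1 SCL DKO and in WT alike.

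Of 35 further genes of fatty acid synthesis, elongation, desaturation and activation, 30 were tested, and 8 rose and 3 fell in LYL1 SCL DKO against WT. That is 36.7%, close to the 34.5% of all genes called, of which 16.4% were higher and 18.1% lower. Against SCL KO, 6 rose and 3 fell (30%), where 19.1% of all genes were called. Acsl1, which activates long-chain fatty acids, was at 61.1, 66.5 and 61.6 CPM in LYL1 SCL DKO, 38.5, 40.4 and 41.6 CPM in SCL KO, 41.5, 39.4 and 39.3 CPM in LYL1 KO and 37.1, 35.5 and 39.2 CPM in WT. It rose by 0.76 ± 0.08 against WT (adjusted p = 3.09e-05). Mlycd, the malonyl-CoA decarboxylase, rose by 0.64 ± 0.12 (adjusted p = 0.00127), while the desaturase Fads2 fell by 0.70 ± 0.11 (adjusted p = 0.00047) and the elongase Elovl7 by 0.83 ± 0.14 (adjusted p = 0.000767). Gpam, which starts glycerolipid synthesis, was at 16 ± 2.31 CPM in LYL1 SCL DKO and 8.59 ± 2.52 CPM in SCL KO and rose by 0.90 ± 0.22 (adjusted p = 0.0151), a call lost without some single libraries (up to 0.0732). Against LYL1 KO, Tecr, the last enzyme of the elongation cycle, fell by 0.57 ± 0.09 (adjusted p = 0.000508) and Acsl4 rose by 0.54 ± 0.10 (adjusted p = 0.00148).

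In SCL KO against WT, 2 genes of the last list were called. They were Mid1ip1, which promotes acetyl-CoA carboxylase activity, at 237 ± 34.7 CPM in SCL KO, against 161 ± 14.4 CPM in WT (log2 fold change 0.56 ± 0.13, adjusted p = 0.0306), and Me1, the cytosolic malic enzyme, at 20.9 ± 1.98 CPM in SCL KO, against 10.9 ± 4.01 CPM in WT (log2 fold change 0.94 ± 0.25, adjusted p = 0.0492). Both calls were lost when single libraries were left out, with adjusted p-values up to 0.122 for Mid1ip1 and 0.216 for Me1. In LYL1 KO against WT, none of the 59 genes tested in the 3 lists was called by edgeR's quasi-likelihood test, DESeq2's Wald test or limma-voom, and 1 had an unadjusted p under 0.05 by the first.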

How the data were processed

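RNA of 12 pools labelled as mouse embryos was sequenced, in 4 groups of 3 libraries taken with their replicate numbers from the labels. The same number marks no stated litter, batch or day. In the data, deviations of same-numbered libraries from their group means correlated at 0.216, 0.150 and 0.441 between LYL1 SCL DKO and SCL KO. Between differently numbered libraries, LYL1 SCL DKO replicate 1 correlated at 0.231 with SCL KO replicate 2. LYL1 SCL DKO replicate 2 correlated at 0.152 with SCL KO replicate 1. The values set replicate 3 apart and do not show that the numbers pair replicates 1 and 2. Between SCL KO and WT the same-numbered values were 0.1, 0.144 and 0.361. Every comparison other than LYL1 SCL DKO with SCL KO had at least 1 same-numbered pair at 0.1 or less. The authors deposited raw read counts per gene (49671 genes), and of these 49326 matched a symbol by Ensembl identifier. Per the submitters' processing notes, the tools were STAR 2.5.2b, featureCounts from Subread 1.5.2 and limma, with build GRCm38. Per the file headers, the counts are for the reverse strand and do not include reads that map to several places, so reads of near-identical genes can be lost. The sources used here give no read length or trimming.

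The analysis used edgeR 4.0.16 in R 4.3.3. Its filterByExpr step, at a minimum count of 10 and a total of 15, kept 15399 genes. After TMM scaling, the robust quasi-likelihood F-test was run on the 12 libraries together, with no term beside group and with Benjamini-Hochberg adjustment within a comparison. The common biological coefficient of variation was 0.234. The scripts were tested on simulated counts. The alternatives were DESeq2 1.42.0 size factors and Wald test, limma 3.58.1 voom, no filter (26757 genes), a filter of 1 CPM in 3 libraries (13419 genes), the replicate number as a block, each library left out and only the libraries compared.

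Every member is named. A called member has its values by library, and of the others the abundant and those with the smallest p-values, up to 3 per comparison, are given, with up to 4 called genes per related list and comparison. The members, the lists and the tests were chosen with earlier results of these data known. Shared 50-base words were counted in the annotated mouse transcripts, on both strands, and promoters came from RefSeq. The shares can thus include overlaps with a gene on the opposite strand of the same place, which stranded counts can tell apart. Exact tests of 3 against 3 libraries cannot give a two-sided p below 0.1 and were not used.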

Additional observations from a re-analysis of the deposited data

Results flagged for a closer look

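Some genes responded differently to the loss of LYL1 without SCL (LYL1 SCL DKO against SCL KO) and with it (LYL1 KO against WT), by edgeR's test of the interaction. Among the members this was Insig1, with an interaction of 2.06 on the log2 scale, and its 3 LYL1 SCL DKO libraries were higher than its 3 SCL KO libraries. Among the related genes the interaction was 0.55 for Acsl1, 1.11 for Gpam and 0.52 for Mbtps1, and it was -0.54 for Fads2, -0.87 for Scarb1 and -1.12 for Lrp8. Their adjusted p-values were 0.0136, 0.047 and 0.0312 for the first 3 and 0.0486, 0.0176 and 0.0404 for the last 3. Over 19 other settings the call was kept in 16 for Insig1, 18 for Acsl1, 9 for Gpam, 11 for Mbtps1, 8 for Fads2, 16 for Scarb1 and 9 for Lrp8.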

How the results depend on the processing

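No named member changed direction under the alternatives run. Of 692 values of named members under other settings, 591 kept their side of the threshold, 67 lost a call and 34 gained one. Members called in LYL1 SCL DKO against WT (13) were 8 to 15 when 1 library was left out. In the same fits 3899 to 5528 of all genes were called, against 5312 with all libraries. In LYL1 SCL DKO against SCL KO (4) they were 2 to 6, and 2 with no filter and in the 6 libraries alone. In LYL1 SCL DKO against LYL1 KO (11) they were 7 to 11. In SCL KO against WT (1) they were 0 to 2 when 1 library was left out, 2 with DESeq2 size factors, 2 with the stricter filter, 4 with the Wald test and 0 in the 6 libraries alone. For the interaction (1) they were 0 to 2 when 1 library was left out, 0 with no filter and 2 with the Wald test.

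With the replicate block, 15 members were called in LYL1 SCL DKO against WT and 2 in SCL KO against WT. In LYL1 SCL DKO against SCL KO the block gave 5 members, the 4 called without it and Nsdhl, and changed no other call of a named member. In every comparison the labels give the libraries only a shared number. Same-numbered deviations correlated between -0.0432 and 0.441 over all groups, over 0.1 in 10 of 18 pairs. A term for the side of the second principal component, added after seeing the data, gave 17 members in LYL1 SCL DKO against WT, 2 in SCL KO against WT and 3 for the interaction. DESeq2 and TMM factors differed by at most 0.012 on the log2 scale in a group mean. The TMM factors themselves differed by genotype, at 1.14, 1.24 and 1.30 in LYL1 SCL DKO and 0.912, 0.894 and 0.957 in WT. Small fold changes between these groups therefore depend on the scaling, and fold changes without it were not tested. Over all genes, LYL1 KO against WT gave 11 calls, 5 to 41 when 1 library was left out, 103 with the Wald test and 29 in the 6 libraries alone. SCL KO against WT gave 774, but 388 to 955, 1329 with the Wald test, 1226 with the replicate block and 1631 with the principal component. LYL1 SCL DKO against WT gave 5312, but 3596 in the 6 libraries alone, 5970 with the replicate block and 6581 with the principal component. LYL1 SCL DKO against LYL1 KO gave 5422, but 3884 to 5162 when 1 library was left out. LYL1 SCL DKO against SCL KO gave 2947, but 1645 to 3222, and 1742 in the 6 libraries alone. The interaction gave 1444, but 671 to 1925, 2262 with the Wald test and 3199 with the principal component. Where the calls of members moved, the cause was not tested. Fewer libraries leave fewer degrees of freedom, and the part of this was not tested either.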
